A study of Mus musculus with 13 samples.

Results

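Genomic imprinting marks a gene by DNA methylation according to the parent it came from, so that a single parental copy is transcribed. Imprinted genes lie in clusters that share a methylated control region, and many encode growth factors, cell-cycle inhibitors and non-coding RNAs that are abundant in the embryo, decline after birth and return in skeletal muscle during repair. The genes described here were 38 listed imprinted genes, taken as the rows of a deposited expression table whose symbol was on the list. Of the 38, 35 were in the table of 14911 genes and fell into 17 loci. Rian, Phlda2 and Magel2 were not analysed here. The copy that is expressed is maternal for 14 of the 35, paternal for 20, and for Gnas differs between its transcripts. These copies are background knowledge, since the mice are inbred and the values do not separate parental alleles. For some members, such as Ube3a, Cd81 and Asb4, imprinting is known mainly in other tissues.

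The libraries came from whole hamstring muscle of female C57BL/6 mice whose age is not given in the sources used here. Every mouse had cardiotoxin, a venom peptide used to kill fibres and set off repair, injected into the hamstring at 0.32 mg/kg, and muscle was taken on day 4. Dexamethasone, a synthetic glucocorticoid, was given intraperitoneally at 10 mg/kg once a day on days 0 to 4 to 9 mice. Saline was given by the same route and schedule to 4 mice, and each mouse gave 1 library. Heterotopic bone is bone formed within muscle. It was seen by micro-computed tomography in all dexamethasone mice and in none of the 4 saline mice. A further saline mouse did form bone and had been dropped, so the bone-free saline group was reached by selection. Among the libraries used, the drug and the bone therefore cannot be told apart. Dexamethasone libraries held 28021111 to 34942266 reads and saline libraries 25531487 to 32537345 reads. Levels are log2 CPM, where CPM is a gene's read count scaled to the size of its library. Each fold change is dexamethasone over saline on the log2 scale with its standard error (SE), from limma fitted to all 14911 genes. A gene passed where the Benjamini-Hochberg adjusted p was under 0.05.

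The list follows known imprinting and no cut-off on a measured value, but it was drawn up with the differences between these dexamethasone and saline libraries known. Values and calls therefore describe the listed genes, and counts over them carry no weight as evidence about imprinted genes in general.

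Several of the genes host microRNAs, short RNAs that pair with target transcripts through a seed at bases 2 to 8. RefSeq places 59 mature microRNAs with 56 different seeds within 7 of the genes, which are H19, Igf2, Mest, Meg3, Mirg, Rtl1 and Usp29. Mature microRNAs were not measured, so the values below belong to the host transcripts. The sequences shown are those inside H19, Igf2, Mest, Meg3 and Mirg, hosts that were lower after dexamethasone, with the seed in capitals. The first pair lies in an exon of H19, the second in an intron of Igf2 and the third in an intron of Mest, all on the strand of the host.
miR-675-5p: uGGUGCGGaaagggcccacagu
miR-675-3p: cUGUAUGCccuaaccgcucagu
miR-483-5p: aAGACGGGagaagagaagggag
miR-483-3p: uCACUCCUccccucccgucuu
miR-335-5p: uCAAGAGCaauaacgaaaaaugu
miR-335-3p: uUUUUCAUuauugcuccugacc

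At Dlk1-Dio3, miR-770 and miR-1906 lie in exons of Meg3. Mirg holds 10 hairpins on its own strand, among them miR-377 and miR-410 in exons. The seed GGUUGCC is shared by miR-453 and miR-496a-5p, both in introns of Mirg. Rtl1 spans 13 hairpins on the opposite strand and 2 on its own.
miR-770-5p: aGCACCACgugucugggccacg
miR-770-3p: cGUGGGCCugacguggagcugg
miR-1906: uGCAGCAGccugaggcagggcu
miR-377-5p: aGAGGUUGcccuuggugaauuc
miR-377-3p: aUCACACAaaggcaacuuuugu
miR-410-5p: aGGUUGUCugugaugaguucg
miR-410-3p: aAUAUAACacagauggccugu
miR-453: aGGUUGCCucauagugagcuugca
miR-496a-5p: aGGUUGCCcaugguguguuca

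Of the 35 genes, 19 were lower and 4 were higher in dexamethasone muscle, and 12 did not pass. Over all genes tested, 48.1% passed, with 22.9% lower and 25.2% higher. The median fold change was -0.365 over the 35 genes and 0.00706 over all genes. The fall was at least 2-fold for 9 of the 35 genes, or 25.7%, against 2.69% of all genes, and the rise was at least 2-fold for 1 of the 35, Dio3, or 2.86%, against 2.5% of all genes. No overlap between the 9 dexamethasone and the 4 saline values was seen for 17 of the 35 with dexamethasone lower and 2 with dexamethasone higher, against 12.9% of all genes in each direction. Both parental classes moved: 9 of the 14 maternally expressed genes were lower and 1 was higher, and 9 of the 20 paternally expressed genes were lower and 3 were higher.

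**Figure D1:**
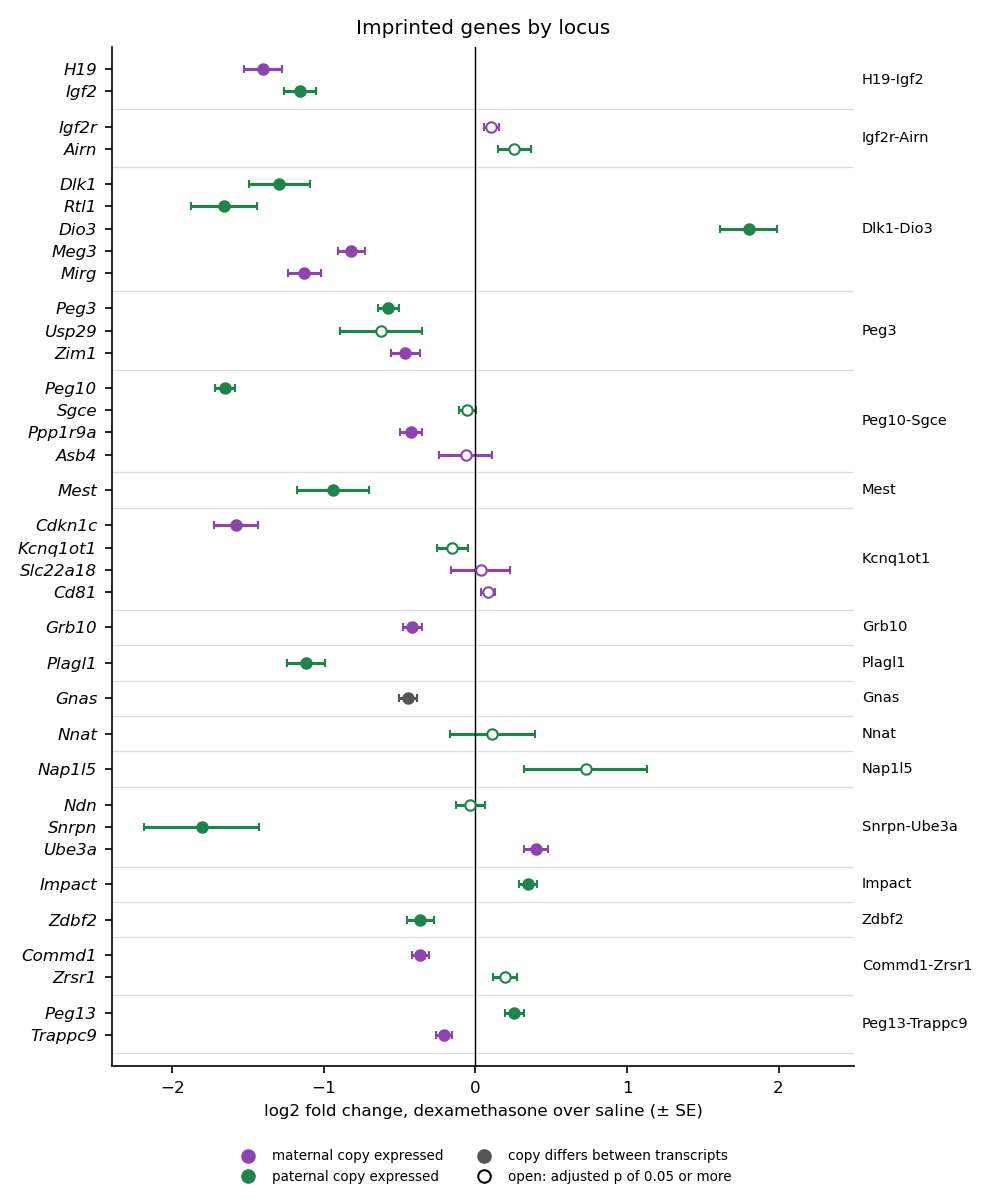
Log2 fold change, dexamethasone over saline, of the 35 imprinted genes grouped by locus (points, with SE as bars); purple marks maternally expressed, green paternally expressed and grey Gnas, and open points did not pass. H19 and Igf2 lie together at -1.40 and -1.16, whereas Peg10 at -1.66 lies beside Sgce at -0.05, and Dio3 stands alone at 1.80.

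Igf2 encodes insulin-like growth factor 2, a growth factor that differentiating myoblasts secrete and respond to, and H19, a maternally expressed long non-coding RNA, shares its enhancers (chr7:142650768-142666816 and chr7:142575530-142578146, mm10). H19 was at 11.36, 11.65 and 11.99 log2 CPM (lowest, median and highest) in dexamethasone muscle, against 12.88, 13.23, 13.17 and 13.09 in saline muscle. All saline libraries lay above all dexamethasone libraries, and H19 was 2.64-fold lower (fold change -1.40, SE 0.124, adjusted p = 5.92e-07). Igf2 was at 8.91, 9.12 and 9.39 log2 CPM in dexamethasone muscle and at 9.93, 10.36, 10.41 and 10.48 in saline muscle. Its groups also lay apart, and Igf2 was 2.23-fold lower (fold change -1.16, SE 0.103, adjusted p = 6.28e-07). These were abundant transcripts: per kilobase of exon, H19 had 1350 CPM in dexamethasone and 3560 CPM in saline muscle, the highest level among the 35 genes in each group.

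The ratio of Igf2 to H19 overlapped between the groups: on the log2 scale it was -2.55 ± 0.224 in dexamethasone muscle (SD, n = 9) and -2.79 ± 0.144 in saline muscle (SD, n = 4). The difference of 0.243 did not pass an exact two-sided permutation test over the 715 ways to assign 4 libraries (adjusted p = 0.0971 over 18 pairs). It passed without dexamethasone library 4, at 0.291 (exact permutation test, adjusted p = 0.0252), and was -0.036 after quantile normalisation. Igf2 is cleared by Igf2r, a receptor that carries it to lysosomes, and Airn is a paternal non-coding RNA that overlaps Igf2r on the opposite strand and silences it (chr17:12682406-12769706 for Igf2r). Igf2r was at 7.80 to 8.01 log2 CPM in dexamethasone and 7.71 to 7.89 in saline muscle, and Airn at 2.63 to 3.18 in dexamethasone and 2.51 to 2.97 in saline muscle. Neither passed (adjusted p = 0.0974 and 0.0624), and the groups overlapped for both. Igf2r and Airn share 28396 annotated bases, and whether counting used strand is not given in the sources used here. Values of Airn, and its ratio to Igf2r, are therefore uncertain. Ligand fell relative to receptor: the log2 ratio of Igf2 to Igf2r was 0.975 to 1.5 in dexamethasone and 2.11 to 2.77 in saline muscle, a difference of -1.26 (exact permutation test, adjusted p = 0.0021).

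Cdkn1c encodes p57Kip2, an inhibitor of cyclin-dependent kinases that holds myoblasts out of the cell cycle as they differentiate (chr7:143458339-143461059). It was at 5.96, 6.71 and 6.93 log2 CPM in dexamethasone muscle, against 7.91, 8.15, 8.27 and 8.47 in saline muscle. The groups lay 0.981 apart at their nearest values, and Cdkn1c was 2.99-fold lower (fold change -1.58, SE 0.147, adjusted p = 9.7e-07). Other genes of the same domain did not pass: Kcnq1ot1, the paternal non-coding RNA whose transcription silences it, Slc22a18, a membrane transporter, and Cd81, a tetraspanin of the cell surface. Their fold changes were -0.15, 0.04 and 0.08, with SE of 0.103, 0.195 and 0.0464. The ratio to Cdkn1c differed between the groups for each of them, by 1.43 for Kcnq1ot1, 1.61 for Slc22a18 and 1.66 for Cd81 (exact permutation test, adjusted p = 0.0021 each). Slc22a18 lies 12666 bases from Cdkn1c. Kcnq1ot1 overlaps Kcnq1 on the opposite strand along its whole annotated exon length of 93092 bases, so its values are uncertain.

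The Dlk1-Dio3 cluster on chromosome 12 holds protein-coding genes expressed from the paternal copy and non-coding RNAs from the maternal copy. All 5 measured members passed, 4 lower and 1 higher. Dio3, the type 3 deiodinase that inactivates thyroid hormone (chr12:110279230-110281097), was at 2.91, 3.28 and 3.78 log2 CPM in dexamethasone muscle, against 1.43, 1.07, 1.26 and 2.21 in saline muscle. Saline library 5 was the highest of its group and still below every dexamethasone library, and Dio3 was 3.49-fold higher (fold change 1.80, SE 0.190, adjusted p = 2.89e-06). In reads, Dio3 had 219 to 408 per dexamethasone library and 50 to 150 per saline library. Dlk1, a membrane protein related to Notch ligands that is known to act in muscle regeneration (chr12:109452485-109463336), moved the other way. Its level was 3.29, 3.496 and 4.05 log2 CPM in dexamethasone muscle and 4.51, 5.65, 4.17 and 5.11 in saline muscle. The groups were only 0.118 apart at their nearest values, with saline spread over more than 1 log2 unit, and Dlk1 was 2.45-fold lower (fold change -1.29, SE 0.200, adjusted p = 8.99e-05).

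Maternal RNAs of the cluster were lower as well. Meg3, a long non-coding RNA, was at 7.12, 7.20 and 7.43 log2 CPM in dexamethasone muscle, against 7.88, 8.43, 7.96 and 7.92 in saline muscle. Saline library 2 stood above its group, and without it the fold change was -0.69 in place of -0.82 (SE 0.0891, adjusted p = 3.82e-06 with all libraries). Mirg, the microRNA host at the far end of the maternal transcripts, was at 1.90, 2.09 and 2.33 log2 CPM in dexamethasone muscle and at 3.00, 3.58, 3.13 and 3.20 in saline muscle. Its groups did not overlap either, and the fold change was -1.13 (SE 0.110, adjusted p = 1.48e-06). Rtl1, a retrotransposon-derived gene with a role in fetal muscle and placenta, had 14 to 28 reads in dexamethasone libraries and 41 to 65 in saline libraries (fold change -1.66, SE 0.218, adjusted p = 2.01e-05). It is transcribed against Meg3 and shares 6830 annotated bases with it, and whether counting used strand is not given in the sources used here, so its value is uncertain; with log2 of CPM plus 1 it was -0.864.

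Within the cluster the ratio of Dio3 to Dlk1 was -0.613 to 0.226 log2 in dexamethasone muscle and -4.58 to -2.90 in saline muscle. These genes lie 815893 bases apart, share the expressed parental copy, and differed in response by 3.10 (exact permutation test, adjusted p = 0.0021). Mirg fell more than Meg3, with a difference of -0.311 (exact permutation test, adjusted p = 0.0021), and no dexamethasone ratio reached the lowest saline ratio; with log2 of CPM plus 1 the difference was -0.159. Meg3 over Dlk1 differed by 0.476 (exact permutation test, adjusted p = 0.0407). That call was lost without dexamethasone library 1, 4, 5, 6, 7, 8 or 9 or saline library 1, 2 or 5, and the value fell to 0.339 without saline library 2 and 0.352 without saline library 5. Rtl1 over Dlk1 differed by -0.365 and did not pass (exact permutation test, adjusted p = 0.222). It passed without saline library 2, at -0.613 (exact permutation test, adjusted p = 0.0441), was -0.118 without saline library 1, and turned to 0.364 with log2 of CPM plus 1.

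**Figure D2:**
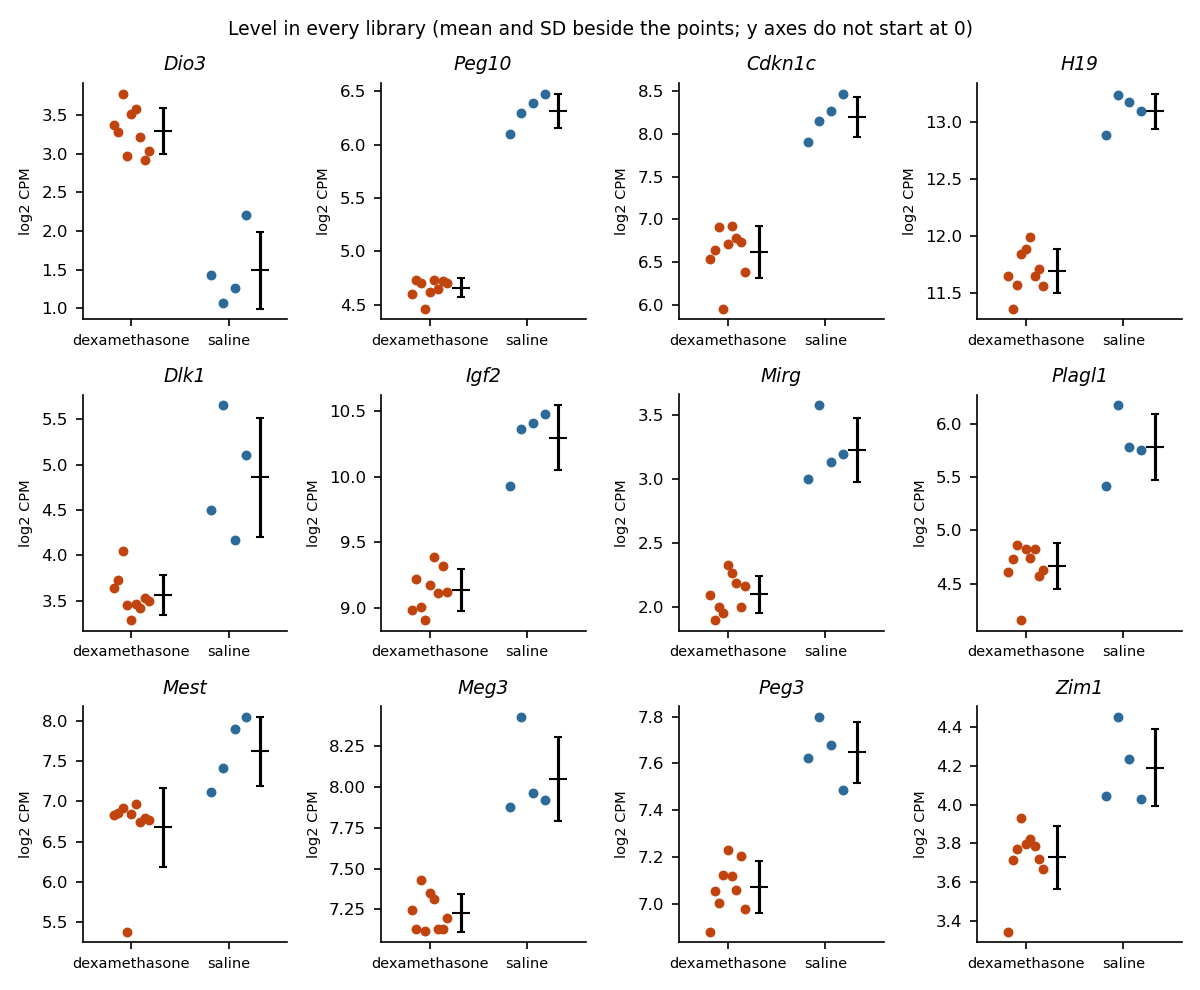
Level in log2 CPM of 12 imprinted genes in each of 9 dexamethasone (red) and 4 saline (blue) libraries, with the mean and SD as a black bar; the y axes do not start at 0. Dio3 is higher in dexamethasone muscle, the other 11 genes are lower, and no panel shows an overlap of the groups.

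Peg10 is a paternally expressed gene derived from a retrotransposon and keeps a viral-like frameshift between its reading frames (chr6:4747306-4760517). It was at 4.46, 4.70 and 4.73 log2 CPM in dexamethasone muscle, against 6.10, 6.29, 6.39 and 6.48 in saline muscle. The 9 dexamethasone values lay within a narrow band that was 1.37 below the lowest saline value. Peg10 was 3.15-fold lower (fold change -1.66, SE 0.0664, adjusted p = 5.45e-10), and its p-value ranked 1 among all 14911 genes. Sgce, epsilon-sarcoglycan of the dystrophin-associated complex, starts 101 bases away on the other strand and is also paternal. It was at 4.18 to 4.44 log2 CPM in dexamethasone and 4.32 to 4.46 in saline muscle, with a fold change of -0.05 (SE 0.0568, adjusted p = 0.458).

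The log2 ratio of Sgce to Peg10 was -0.34 ± 0.0944 in dexamethasone muscle (SD, n = 9) and -1.94 ± 0.164 in saline muscle (SD, n = 4). This difference of 1.6 between the responses of a pair of genes on the same parental copy passed (exact permutation test, adjusted p = 0.0021). Ppp1r9a, which encodes the actin-binding protein neurabin, was lower by a smaller amount (fold change -0.42, SE 0.0734, adjusted p = 0.000232). Asb4, an ankyrin-repeat protein of ubiquitin ligase complexes, did not pass (fold change -0.06, SE 0.177). Both gained relative to Peg10, by 1.23 and 1.59 (exact permutation test, adjusted p = 0.0021 each).

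Fold changes at the Peg3 cluster on chromosome 7 were below 1 log2 unit. Peg3, a paternal zinc-finger protein expressed in muscle progenitors (chr7:6703892-6730462), was at 6.88, 7.06 and 7.23 log2 CPM in dexamethasone muscle, against 7.62, 7.80, 7.68 and 7.49 in saline muscle. The groups lay apart, with a fold change of -0.57 (SE 0.0665, adjusted p = 6.69e-06). Zim1, the maternal zinc-finger gene next to it, was at 3.34, 3.77 and 3.93 log2 CPM in dexamethasone muscle and at 4.04, 4.45, 4.23 and 4.03 in saline muscle. Dexamethasone library 1 was the lowest of its group, and the fold change was -0.46 (SE 0.0968, adjusted p = 0.00109). Usp29, a deubiquitinase gene that starts 96 bases from Peg3, had 9 to 26 reads in dexamethasone and 17 to 23 in saline libraries and did not pass (adjusted p = 0.0683). Neither ratio to Peg3 passed, with differences of 0.112 for Zim1 and -0.05 for Usp29 (exact permutation test, adjusted p = 0.138 and 0.863).

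**Figure D3:**
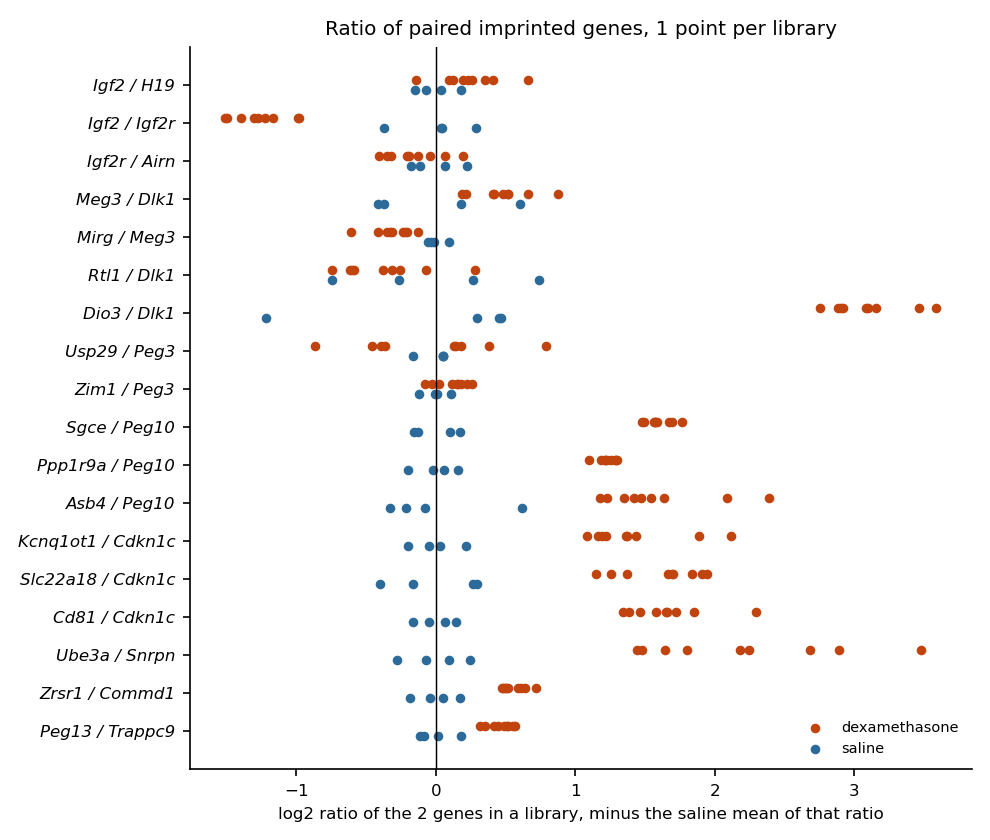
Log2 ratio of the first to the second gene of 18 pairs in each of 9 dexamethasone (red) and 4 saline (blue) libraries, minus the mean saline ratio of that pair. Dio3 over Dlk1, Sgce over Peg10 and all 3 ratios to Cdkn1c lie right of every saline point, Igf2 over Igf2r lies left of them, and Igf2 over H19 overlaps.

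In all, 13 of the 18 pairs differed in response, the first gene gaining in 11 and losing in 2. No overlap between the groups was seen for 12. The pairs were chosen with earlier results known, and 48.1% of all genes passed singly. How often other pairs of genes differ was not tested, so the count describes these pairs only. An adjusted p of 0.0021 is the smallest that those 715 assignments allow with these pairs. The pair Igf2 and Igf2r sits on different chromosomes. The others share a locus, and range from overlapping genes to genes 815893 bases apart. Across the 9 dexamethasone libraries alone, none of the 18 pairs had a correlation that passed after adjustment. At an unadjusted exact p under 0.05 there were 3, for Zrsr1 with Commd1 (Pearson r = 0.751, Spearman rho = 0.6), Ppp1r9a with Peg10 (r = 0.728, rho = 0.75) and Zim1 with Peg3 (r = 0.702, rho = 0.717). Their exact permutation p over pairings for r was 0.0219, 0.018 and 0.031, and 0.186 after adjustment for each. Without the 2 libraries farthest from the median these r values were 0.503, 0.448 and 0.364, and none had an unadjusted exact permutation p under 0.05 over the libraries left, whose range is narrower. For Kcnq1ot1 with Cdkn1c, r went the other way, 0.769 without the 2 libraries against 0.0604 with all 9 (unadjusted exact permutation p = 0.0476 and 0.885). For Igf2 with H19, r was 0.197 (rho = 0.217, exact permutation p = 0.612 and 0.581, adjusted 0.734 and 0.849).

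Growth regulators at loci of their own were lower. Plagl1, a paternal zinc-finger transcription factor that is known to regulate Igf2 and Cdkn1c (chr10:13090832-13131694), was at 4.16, 4.73 and 4.86 log2 CPM in dexamethasone muscle, against 5.42, 6.17, 5.78 and 5.75 in saline muscle. The lowest value was that of dexamethasone library 4, the groups did not overlap, and the fold change was -1.12 (SE 0.127, adjusted p = 5.64e-06). Mest, a paternal gene for a hydrolase-like protein of the endoplasmic reticulum (chr6:30733506-30748466), was at 5.39, 6.83 and 6.97 log2 CPM in dexamethasone muscle and at 7.12, 7.42, 7.90 and 8.05 in saline muscle. Its 5.39 was again dexamethasone library 4, far below the next library at 6.75. Mest was 1.92-fold lower (fold change -0.94, SE 0.239, adjusted p = 0.00429), and -0.779 without that library.

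Grb10 and Gnas were lower by less. Grb10, a maternal adaptor that dampens insulin and IGF1 receptor signalling, was at 8.29 to 8.53 log2 CPM in dexamethasone and 8.59 to 8.92 in saline muscle (fold change -0.42, SE 0.0609, adjusted p = 5.45e-05). Gnas, whose main product is the stimulatory G-protein alpha subunit, was at 10.27 to 10.46 log2 CPM in dexamethasone and 10.75 to 10.85 in saline muscle (fold change -0.44, SE 0.0619, adjusted p = 3.47e-05), and at -0.265 after quantile normalisation. Neither gene's groups overlapped. Zdbf2, a paternal zinc-finger gene, was lower with a small overlap (fold change -0.36, SE 0.0890, adjusted p = 0.00325).

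The remaining loci held all other higher genes. Ube3a, the ubiquitin ligase of Angelman syndrome, was at 4.65 to 5.03 log2 CPM in dexamethasone and 4.32 to 4.74 in saline muscle, a rise of 0.40 with a small overlap (SE 0.0790, adjusted p = 0.000695). It shares 3613 annotated bases with the transcript Snhg14 on the opposite strand, so part of its reads is uncertain. Snrpn, a spliceosome protein gene of the same region, had 3 to 16 reads in dexamethasone and 21 to 36 in saline libraries (fold change -1.81, SE 0.379, adjusted p = 0.00109). It shares a strand and exons with Snurf, so its reads are uncertain, and the fold change was -0.631 with log2 of CPM plus 1. Ndn, which encodes the growth suppressor necdin, did not pass (fold change -0.03, SE 0.0947). Ube3a gained 2.21 over Snrpn (exact permutation test, adjusted p = 0.0021), and 1.02 with log2 of CPM plus 1.

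Impact, a paternal inhibitor of the translation kinase Gcn2, rose by 0.35 (SE 0.0599, adjusted p = 0.000231) without overlap. At the overlapping pairs of Peg13 with Trappc9 and Commd1 with Zrsr1 the members differed in response. Peg13, a paternal non-coding RNA within Trappc9, was higher (0.26, SE 0.0650, adjusted p = 0.00404) and Trappc9, a vesicle-trafficking subunit, was lower (-0.21, SE 0.0522, adjusted p = 0.00402), a difference of 0.465. Commd1, a regulator of NF-kappaB and copper transport, was lower (-0.36, SE 0.0543, adjusted p = 6.53e-05), whereas its intronic partner Zrsr1, a splicing-factor retrogene, had 0.19 and did not pass (SE 0.0816, adjusted p = 0.0595), a difference of 0.558. Both differences passed (exact permutation test, adjusted p = 0.0021 each). Peg13 and Trappc9 share 4723 bases on the same strand, and Commd1 and Zrsr1 share 4492 on opposite strands, so reads of each pair could not be fully separated. Nnat, a small membrane protein, and Nap1l5, a nucleosome assembly protein relative with 9 to 30 reads in dexamethasone and 3 to 16 in saline libraries, did not pass (fold changes 0.11 and 0.73, SE 0.282 and 0.407).

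Dexamethasone acts through the glucocorticoid receptor, so promoter windows of 250 bases before to 50 after the start were searched on both strands. RefSeq (GRCm38.p6) had 44 windows for 27 of the 35 genes. Genes without a window, and so not searched, included H19, Peg10, Cdkn1c, Sgce and Rtl1. The palindromic receptor element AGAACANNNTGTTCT was in 0 of the 44 and in 0.00913% of all 32851 windows. Its 6-base arm TGTTCT, which the palindrome also contains, was in 7 of the 44, or 15.9%, against 19% of all windows. The element TGCCGC of ZFP57, a protein that protects imprints, was in 12 of the 44, or 27.3%, against 11.6% of all windows, and the E-box CANNTG of myogenic factors was in 65.9% of the 44 against 72.3% of all. The run CGCGCG was in 13.6% of the 44 against 11.3% of all. Windows of a gene can overlap, and a match describes the letters only.

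Shown are the windows of Dio3, the only gene that rose more than 2-fold, of Dlk1 and Mirg from the same cluster, and of Igf2. Igf2 has 3 further windows without the arm. Windows of Meg3, from the same cluster as Dio3, also hold no arm and are not shown. Capitals mark TGTTCT on either strand. Dio3 is at chr12:110278980-110279279 (+), Dlk1 at chr12:109452573-109452872 (+), Mirg at chr12:109734731-109735030 (+) and Igf2 at chr7:142666767-142667066 (-). The Dio3 window is 69.0% G and C and, like that of Dlk1, holds no arm, whereas Mirg holds 2 and Igf2 holds 1. The Dlk1 window lies wholly inside the span given for Dlk1 above, so the bases before that span were not searched.
Dio3: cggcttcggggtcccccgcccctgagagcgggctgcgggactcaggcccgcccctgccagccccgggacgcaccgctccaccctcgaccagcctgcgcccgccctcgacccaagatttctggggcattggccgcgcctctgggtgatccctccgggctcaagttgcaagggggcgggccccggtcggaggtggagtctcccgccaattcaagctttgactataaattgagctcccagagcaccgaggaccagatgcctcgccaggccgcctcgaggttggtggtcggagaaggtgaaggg
Dlk1: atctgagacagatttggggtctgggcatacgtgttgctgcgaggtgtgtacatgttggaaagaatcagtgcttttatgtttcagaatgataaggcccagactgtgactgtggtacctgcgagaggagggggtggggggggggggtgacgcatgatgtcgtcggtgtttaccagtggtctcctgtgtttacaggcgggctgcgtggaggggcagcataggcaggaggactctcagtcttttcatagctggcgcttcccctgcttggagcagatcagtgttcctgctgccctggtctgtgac
Mirg: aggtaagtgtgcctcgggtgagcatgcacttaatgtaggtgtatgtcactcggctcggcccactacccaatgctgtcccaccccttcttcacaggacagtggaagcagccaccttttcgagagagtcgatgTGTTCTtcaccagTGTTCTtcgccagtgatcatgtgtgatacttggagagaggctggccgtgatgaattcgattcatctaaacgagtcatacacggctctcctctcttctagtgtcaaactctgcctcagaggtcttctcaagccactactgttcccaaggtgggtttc
Igf2: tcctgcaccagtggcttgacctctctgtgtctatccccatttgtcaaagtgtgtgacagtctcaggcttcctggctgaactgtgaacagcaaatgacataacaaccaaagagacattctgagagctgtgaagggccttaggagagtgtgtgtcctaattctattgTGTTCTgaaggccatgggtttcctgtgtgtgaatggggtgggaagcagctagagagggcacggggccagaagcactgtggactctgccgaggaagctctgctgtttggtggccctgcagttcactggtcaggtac

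Genes that write or protect imprints were counted as a list of 26, of which 25 were measured. Of these, 8 were higher and 3 lower, so that 44.0% passed against 48.1% of all genes. Uhrf1, which brings Dnmt1 to newly copied DNA, was at 4.95 ± 0.222 log2 CPM in dexamethasone muscle (SD, n = 9) and 3.69 ± 0.476 in saline muscle (SD, n = 4), a rise of 1.27. Dnmt1, the maintenance DNA methyltransferase, rose by 0.38 and Zfp57 by 0.50, whereas Tet1, a 5-methylcytosine dioxygenase, was lower (fold change -0.67). The count of 8 was 5 without saline library 2. All 10 markers of proliferating cells, such as Mki67, were higher too, with summed levels of 277 to 392 CPM in dexamethasone and 160 to 288 CPM in saline muscle, and their part in the rise of Uhrf1 and Dnmt1 was not tested.

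A list of 41 other imprinted genes and neighbours at these loci had 37 measured, 13 higher and 10 lower, so that 62.2% passed against 48.1% of all genes. Slc22a3, an organic cation transporter beside Igf2r, rose by 1.41, Tfpi2, a protease inhibitor near Peg10, by 0.80, Peg12 by 0.86 and Atp10a, a phospholipid flippase next to Ube3a, by 0.87. Receptors and binding proteins of the insulin-like growth factors had 15 of 17 measured, 5 higher and 5 lower, so that 66.7% passed. Grb14, an adaptor related to Grb10, was lower with a fold change of -1.13, and the binding proteins Igfbp2 and Igfbp5 with -0.91 and -0.61. Igf2bp2, which binds Igf2 transcripts and is made in myoblasts, was higher by 0.74, at 3.73 ± 0.249 log2 CPM in dexamethasone muscle (SD, n = 9) against 2.98 ± 0.141 in saline muscle (SD, n = 4). Igf1r, the receptor through which Igf2 signals, rose by 0.45.

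Whole muscle mixes cell types, and in such samples fewer cells of a type and less RNA per cell cannot be told apart. Markers of mature fibres summed to 92600 to 137000 CPM in dexamethasone and 140000 to 208000 CPM in saline muscle, with 0 higher and 8 lower of 15. Differentiating myocyte markers summed to 3980 to 6100 CPM in dexamethasone and 10400 to 11500 CPM in saline muscle, with 2 higher and 5 lower of 12. The gap was carried largely by Actc1, cardiac actin of immature fibres, at 9.74 log2 CPM in dexamethasone and 12.20 in saline muscle. The 5 lower markers were Actc1, Myh8, Itgb1bp2, Myl4 and Myh3, the last with a fold change of -0.368. Other markers of this list moved the opposite way: the 2 higher were Mymx by 0.545 and Chrna1 by 0.355 (adjusted p = 0.0227 and 0.0092). The differentiation factors Myog and Mymk did not pass (fold changes 0.300 and -0.0126). The fall in the sum was therefore not shared by all markers of the list. Satellite cell and myoblast markers summed to 4760 to 6760 CPM in dexamethasone and 5700 to 6260 CPM in saline muscle, with 5 higher and 2 lower of 10. In the order given, 53.3%, 58.3% and 70.0% of these markers passed, against 48.1% of all genes (22.9% lower and 25.2% higher). The part of these cell types in the lower levels of H19, Igf2, Cdkn1c, Dlk1 and Peg10 was not tested.

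Fibroblast markers summed to 9300 to 13200 CPM in dexamethasone and 9500 to 13400 CPM in saline muscle, with 1 higher and 3 lower of 11. For macrophages the sums were 2630 to 3450 CPM in dexamethasone and 2160 to 3170 CPM in saline muscle, with 4 higher and 1 lower of 11. All 11 lymphocyte markers were lower, at 5.16 to 15.2 CPM in dexamethasone and 40.3 to 57.0 CPM in saline muscle. Adipocyte markers had 5 higher of 6, at 541 to 1300 CPM in dexamethasone and 454 to 793 CPM in saline muscle. Saline library 3 held 372 CPM of neutrophil markers, against 64.0 CPM or less in every other library. Cartilage and bone markers were scarce in both groups, at 36.5 to 49.3 CPM in dexamethasone and 36.9 to 79.0 CPM in saline muscle. The 79.0 CPM was saline library 3, and Ibsp had 0 reads in at least 1 library. Of 8 measured, 37.5% passed: 1 was higher, Runx2 by 0.70, and 2 were lower, Alpl with -0.73 and Sp7 with -3.14. Sp7 was at -1.01 log2 CPM in dexamethasone and 2.13 in saline muscle. Endothelial, pericyte and Schwann cell sums overlapped between the groups.

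**Figure D4:**
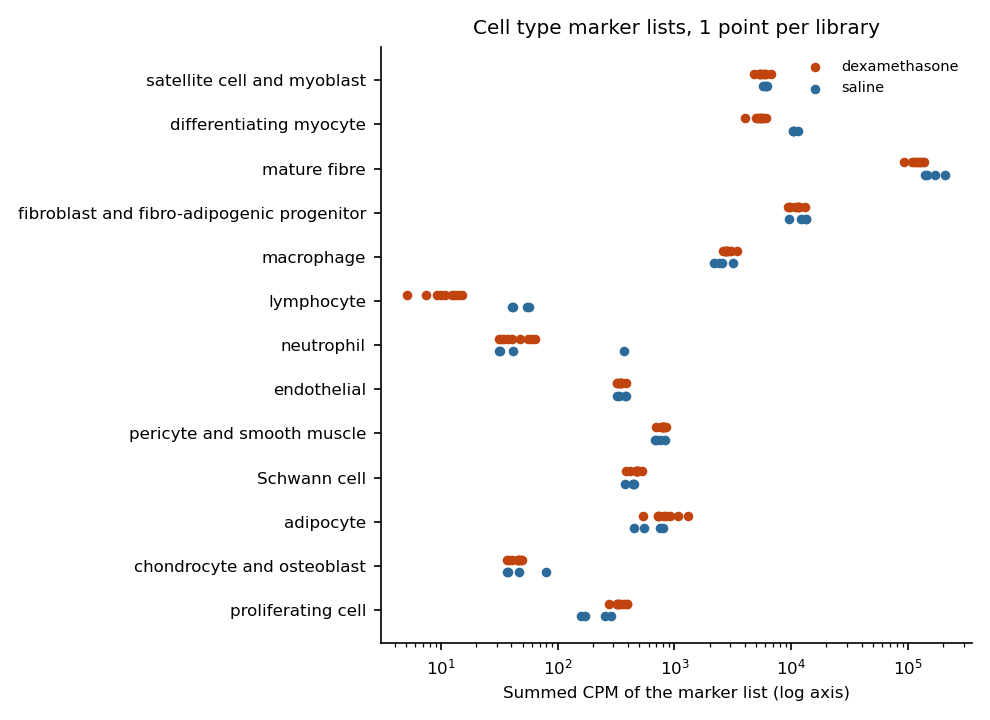
Summed CPM of 13 cell type marker lists (log axis) in each of 9 dexamethasone (red) and 4 saline (blue) libraries. Dexamethasone libraries lie below all saline libraries for differentiating myocytes, mature fibres and lymphocytes, and above or among them for proliferating cells.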

How the data were processed

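The authors deposited log2 CPM values per gene, and here each value returned a whole read number (within 0.01) once an offset of 0.5 reads was allowed for. The deposited table was normalised without a saline mouse that the submitters excluded because of bone, and 1 per-sample column was not used. Per the submitters' processing notes, featureCounts 2.0.1, limma 3.50.1 and mm10 were used. For the aligner, the low-count filter and the strand setting, nothing is stated in these sources. The authors also deposited log2 fold changes and adjusted p-values of their own, which were not used for the values reported.

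All 14911 genes were fitted with limma 3.58.1 (R 4.3.3, intensity trend, two-sided, Benjamini-Hochberg), with no covariates. Groups came from the labels, with 1 mouse per library. On simulated data with 100 genes changed by a log2 fold of 1 and 100 by 0.5, 88 and 66 were recovered and 5 of 159 calls were false. Ratios of paired genes were compared by exact permutation (scipy 1.17.1). The 12 passing members of largest fold change whose mean log2 CPM was 0 or more are given by library. Up to 4 genes are named by the same rule for imprint maintenance, other imprinted genes, growth factor receptors, differentiating myocytes, and cartilage and bone. For the other marker lists that rule was not used. Igf1r, Mki67, Myog, Mymk, Myh3, Mymx, Chrna1 and Sp7 were named after their values were seen. Positions and sequences are from RefSeq (GRCm38.p6) and exon lengths from GENCODE on the same build. Members, lists and pairs were chosen with earlier results of these data known. With 9 and 4 mice, small changes may be missed.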

Additional observations from a re-analysis of the deposited data

Results flagged for a closer look

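In 70 groups of libraries, 7 values stood apart from the rest of their group by Dixon's criterion, which by chance marks about 1 group in 20. Dexamethasone library 4 accounted for 3 of them as the lowest of 9, with Mest at 5.39 log2 CPM (next 6.75), Plagl1 at 4.16 (next 4.57) and Peg10 at 4.46 (next 4.60). It was the lowest dexamethasone library for 12 of the 35 imprinted genes, and for 16.6% of all genes. Its differentiating myocyte markers summed to 3980 CPM, the lowest of all libraries, and its satellite cell and myoblast markers to 6760 CPM, the highest. Without it Mest, Plagl1 and Peg10 remained lower, at -0.779, -1.06 and -1.63. Zim1 was at 3.34 in dexamethasone library 1 (next 3.67), and its fold change was -0.414 without that library. Among saline libraries, number 2 was the highest for Meg3 at 8.43 (next 7.96) and for Nnat at 5.41 (next 4.74), and number 1 for Asb4 at 3.25 (next 2.76). Without those libraries Meg3 was at -0.691, Nnat at 0.295 in place of 0.112, and Asb4 turned to 0.07 from -0.0646, and neither Nnat nor Asb4 passed with or without them.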

How the results depend on the processing

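Of 835 fold changes of imprinted genes recomputed under 24 alternatives, 827 kept their side of the threshold, 8 newly passed, for Igf2r, Usp29, Zrsr1 and Airn, and 0 lost their call. The sign turned in 10 values, all of Asb4, Ndn and Slc22a18, which did not pass. The 4 higher and 19 lower genes held under every alternative in which they were tested; genes with a low mean were not tested under a filter of at least 1 log2 CPM. Counts ranged over 4 to 5 higher and 17 to 20 lower. Leaving out each library gave 3357 to 3767 genes higher and 2949 to 3409 lower over the whole table, and 12 to 13 differing pairs. Of 342 paired differences, 25 lost their call, 13 of them under the replicate block and the rest for Meg3 over Dlk1, while 3 newly passed: Igf2 over H19 at 0.291 without dexamethasone library 4 and at 0.302 without that and saline library 3, and Rtl1 over Dlk1 at -0.613 without saline library 2. The sign turned in 9 paired differences, for Igf2 over H19, Igf2r over Airn, Rtl1 over Dlk1 and Usp29 over Peg3. Of these, Usp29 over Peg3 passed with its new sign, at 0.344 with log2 of CPM plus 1, which damps genes with few reads. With mouse number as a replicate block on 8 libraries, 0 pairs passed in place of 13, since 16 sign patterns allow no p below 0.125; the same libraries without the block gave 12. That block left 4 imprinted genes higher and 19 lower, with 3054 and 2905 over all genes, and lowered 8 higher imprint-maintenance genes to 5 and 10 lower neighbours to 6. Deviations of same-numbered mice had r of -0.013, -0.0699, -0.0314 and 0.118, within the -0.179 to 0.177 of differently numbered mice. Whether the number stands for anything the mice share is not given by the labels. The median fold change of all genes was 0.00706, -0.0164 with median centring and -0.0118 with quantile normalisation. Read depth limits Snrpn, Rtl1, Usp29 and Nap1l5 most.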
